A study of Mus musculus with 2 samples.

Results

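The barcodes described here were chosen by their content of Malat1, a long non-coding RNA held in the cell nucleus. Of 4000 barcodes in the table, 3998 had at least 300 unique molecular identifiers (UMIs, the tags that count captured RNA molecules), and 254 of these (6.35%, exact binomial interval 5.62 to 7.15) had 2% or more of their UMIs from Malat1. They are called high-Malat1 barcodes below. They were compared with 3588 barcodes of at least 300 UMIs in which Malat1 was under 1%, and 156 barcodes lay between these limits. No limit was set on detected genes or mitochondrial share. Selection was on the measured Malat1 share alone, so the Malat1 values below describe the choice and are not a finding.

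The material came from CD1 mice. Walls of the lateral ventricles were taken from embryonic forebrain and grown for 7 to 10 days in serum-free medium with leukemia inhibitory factor (LIF) at 10 ng/mL and an additive the labels call EFH, and primitive neurospheres were counted as colonies of at least 50 µm. All barcodes share this genotype and this treatment, and there is no untreated group. Spheres were dissociated for Drop-seq, a droplet method that captures polyadenylated RNA on barcoded beads. The labels describe a single-cell library and the series text names single-nucleus sequencing. The labels list 2 samples (pNSCs1 and pNSCs2), but the counts come as 1 table with no map from barcode to sample. The table is therefore 1 sample, the barcodes are not replicates, so nothing here was tested between samples. Intervals in parentheses are at 95% and hold counting error alone.

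An mRNA is made and spliced in the nucleus and then exported, and most mature mRNA of a cell sits in the cytoplasm, where ribosomes translate it. Some long non-coding RNAs stay behind, such as Malat1 and Neat1 at nuclear speckles and paraspeckles, and Xist on the silent X chromosome. Several splicing factor genes keep introns that are removed late, and their transcripts wait in the nucleus. Transcripts of the mitochondrial genome are made and kept in mitochondria, outside the nucleus.

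Malat1 is known to end in a folded triple helix rather than in a poly(A) tail, and an A-rich stretch written in the genome forms part of that helix. Its GENCODE M21 transcript has 6983 bases, and its longest run of A, 12 bases, lies 298 bases before the annotated end. The window around that run is shown because capture on poly(T) beads can start at such a run. It lies within the annotated Malat1 transcript on the minus strand at chr19:5795976-5796059 (GRCm38/mm10), and capitals mark the run of A.
Malat1 3′ window: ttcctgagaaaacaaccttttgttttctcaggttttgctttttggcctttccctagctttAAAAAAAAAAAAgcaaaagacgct

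In high-Malat1 barcodes the Malat1 share ran from 2.01% to 17.2% with a median of 4.42%, against a median of 0.228% in comparison barcodes. The pooled shares were 5.15% (12921 of 250923 UMIs) and 0.265%. At 300 UMIs per barcode this was 15.8 Malat1 UMIs against 0.846. Near the limit, the 37 barcodes from 2% to under 2.5% had medians of 752 UMIs, 8.67% mitochondrial and 3.07% ribosomal protein UMIs. The 48 barcodes just outside, from 1.5% to under 2%, had 961 UMIs, 7.41% and 4.20%. When barcodes were chosen on a random draw of 50% of their UMIs, 254 passed, and in the other UMIs of 253 of them with enough depth Malat1 was 5.22%, against 0.286%.

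High-Malat1 barcodes were shallow. Their UMIs ran from 312 to 9827 with a median of 755 and a median of 565 detected genes, while comparison barcodes had medians of 3996 UMIs and 2027 genes. They made up 174 of the 363 barcodes under 1000 UMIs (47.9%) and 2 of the 1286 barcodes from 5000 UMIs. A filter of at least 500 genes and at most 10% mitochondrial UMIs kept 108 of the 254 and 3547 of the 3588 comparison barcodes. When every barcode was thinned to 300 UMIs, the medians of detected genes were 247 and 264. Free RNA in droplets and doublets were not analysed here. Of 25 barcode pairs that differ by 1 base, 2 include a high-Malat1 barcode, and 3 high-Malat1 barcodes end in an unread base.

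**Figure D1:**
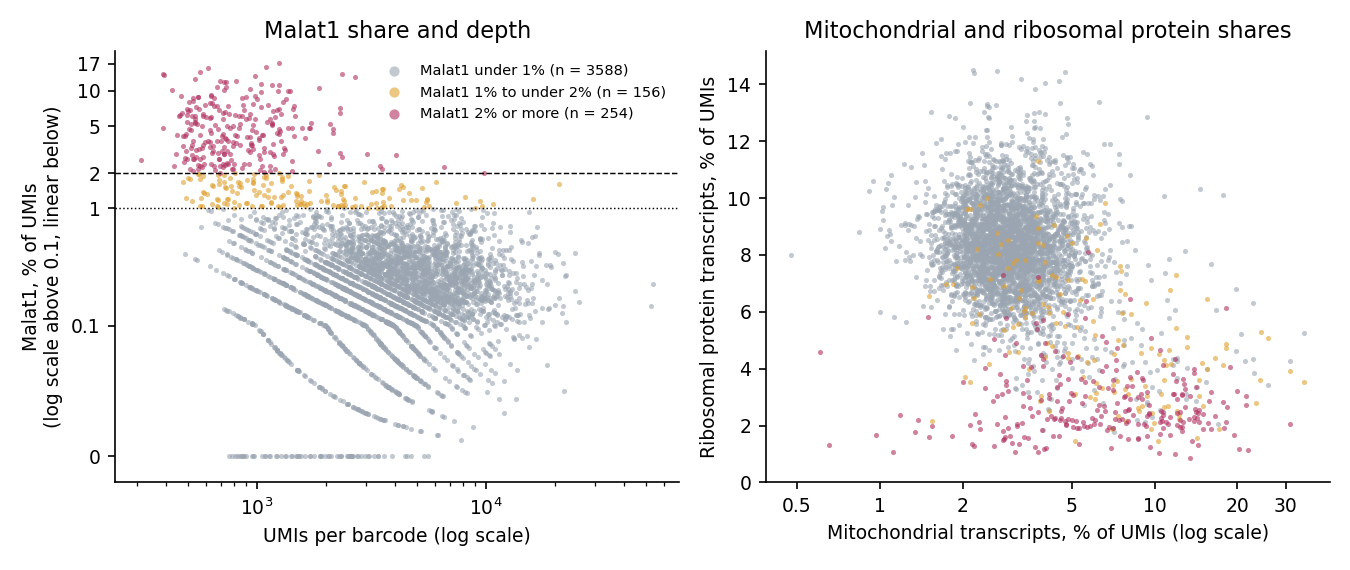
Each point is 1 barcode. Left, UMIs per barcode (log scale) against Malat1 as a percentage of UMIs (log scale above 0.1, linear below), with lines at 1% and 2%. Right, mitochondrial (log scale) against ribosomal protein transcripts as percentages of UMIs. The 254 high-Malat1 barcodes lie mostly under 1500 UMIs, with a median ribosomal protein share of 2.46% against 8.30% in the 3588 comparison barcodes, and their mitochondrial shares spread from 0.604% to 30.9%.

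Levels below are UMIs per 1000000 UMIs other than Malat1 (CPM), so that Malat1 itself does not press other genes down. Lists of genes are given at 300 UMIs per barcode, with 72185 UMIs in high-Malat1 and 1073365 in comparison barcodes. Single genes are given from all UMIs, 238002 and 16934810. A gene counts as measured when the mean of its levels in both groups gives at least 20 expected UMIs in the high-Malat1 barcodes, which 2730 of 19144 genes reached. It counts as higher or lower when its ratio is at least 2 or at most 0.5. By this rule 550 measured genes (20.1%) were higher and 614 (22.5%) were lower, and at 300 UMIs per barcode 546 and 614 of these kept their direction. Of them, 487 and 506 were past 2-fold there too. With the whole interval past 2-fold the counts were 360 and 157. The lowest mean level of a measured gene with a GENCODE match was 84.1 CPM. A gene under this limit in 1 group is measured only through the group where it is high, so the rule fixes its direction. This also holds for the counts by list and the single genes below. The counts of higher and lower genes therefore move with the limit. With at least 50 expected UMIs they were 142 and 299 of 896 genes, and with at least 10 they were 1347 and 842 of 5161.

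Other nuclear long non-coding RNAs were higher in the barcodes chosen by Malat1. Their list of 19 genes in the table stood at 5888 CPM (5341 to 6475) against 827 (774 to 884), a ratio of 7.12 (6.32 to 8.0). Over all UMIs, Xist gave 897 of the list's 1186 UMIs in high-Malat1 barcodes and 8623 of 12273 in comparison barcodes. The list ratio is therefore largely that of Xist. All 4 measured members were higher, where 20.1% of all measured genes were. Of them, Meg3, Sox2ot and Tsix stood at 13.8, 39.2 and 57.4 CPM in comparison barcodes. These were measured only through the high-Malat1 barcodes, so the rule fixed their direction and the count is no support. Xist, which coats the silent X chromosome (chromosome X, 103460366 to 103483254), had 3769 CPM against 509, a ratio of 7.40 (6.90 to 7.93). At 300 UMIs per barcode an Xist UMI was seen in 48.8% of high-Malat1 and 13.7% of comparison barcodes. Without thinning the shares were 59.1% and 59.9%, at the median depths of 755 and 3996 UMIs, and no cells that should lack Xist could be set apart as a background. Tsix, its antisense partner, had a ratio of 3.51 (2.57 to 4.70), but strand use in counting is not given and reads of Tsix and Xist cannot be told apart. Sox2ot, a transcript overlapping the progenitor gene Sox2, had 151 CPM against 39.2, a ratio of 3.86 (2.68 to 5.4). Neat1, the scaffold of paraspeckles, fell short of the measured level with 19 UMIs, at 79.8 CPM against 6.73, a ratio of 11.9 (6.89 to 19.4).

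Meg3, an imprinted non-coding RNA of neurons (chromosome 12, 109541001 to 109571726), had the highest ratio of all measured genes. It stood at 492 CPM against 13.8, a ratio of 35.6 (28.2 to 44.6). Its 117 UMIs lay in 18 of the 254 barcodes, with up to 17 in 1 barcode. Those 18 barcodes held inhibitory neuron markers at 1531 CPM (971 to 2298), and the other 236 held them at 103 (65.4 to 155). Radial glia markers were at 8456 and 13844 CPM in the same groups. Without every barcode that held a Meg3 UMI, in both groups, the nuclear RNA list still had a ratio of 6.13 (5.39 to 6.97). Meg3 is on that list, and its removal from the barcodes takes its own UMIs out of the sum.

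By GENCODE class 23 long non-coding RNAs were measured, the 4 of that list included. Of the 23, 12 were higher and 3 lower, beside 20.1% and 22.5% of all measured genes. Some of the 12, such as 4632427E13Rik at 17.8 CPM in comparison barcodes, were measured only through the high-Malat1 barcodes. Of the 3, 1 is the chaperonin gene Cct6a under the class this annotation gives it. Small nucleolar RNA host genes, whose spliced RNA leaves the nucleus, formed a separate list with a ratio of 1.38 (1.19 to 1.58). In it, 2 of 6 measured members were higher (20.1% of all measured genes). Of the 2, Snhg12 was measured only through the high-Malat1 barcodes. Gas5, the most abundant host gene of the list, stood at 1559 CPM against 1243, a ratio of 1.25 (1.13 to 1.39). Snhg6 was on the other side of equality at 0.750 (0.570 to 0.969). The 23 ranged from 0.322 (0.176 to 0.541) for 1810058I24Rik to 35.6 for Meg3.

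Splicing factor and speckle genes, many with late-spliced introns, were at 29175 CPM (27942 to 30448) against 14044, a ratio of 2.08 (1.98 to 2.17). Of 34 measured members, 22 were higher and none was lower, beside 20.1% and 22.5% of all measured genes. A member under the limit in comparison barcodes can be measured only through the high-Malat1 barcodes, so this count alone is no support. The list ratio sums all 35 genes in the table, measured or not. Rbm25, a splicing regulator, was the most abundant of the 22 at 3248 CPM against 734, a ratio of 4.42 (4.11 to 4.76), and at 300 UMIs it was seen in 57.1% and 19.5% of barcodes. Ogt, the enzyme that adds O-linked N-acetylglucosamine and is known for a detained intron, had a ratio of 5.45 (4.32 to 6.80). Ddx17, an RNA helicase, had 5.33 (4.53 to 6.24). The kinases of SR splicing proteins Clk1, Clk2 and Clk4 had ratios of 4.09, 4.67 and 4.30, and the cyclins Ccnl1 and Ccnl2 had 4.60 and 4.26. Son and Srrm2, large core proteins of speckles, had 2.84 and 2.08. The abundant RNA-binding genes Hnrnpa2b1 and Hnrnpu stood at 0.931 (0.851 to 1.02) and 0.768 (0.679 to 0.866), and Srsf3, an SR protein gene, was lowest at 0.650 (0.528 to 0.791). Whether a UMI came from spliced or unspliced RNA is not recorded in the counts.

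**Figure D2:**
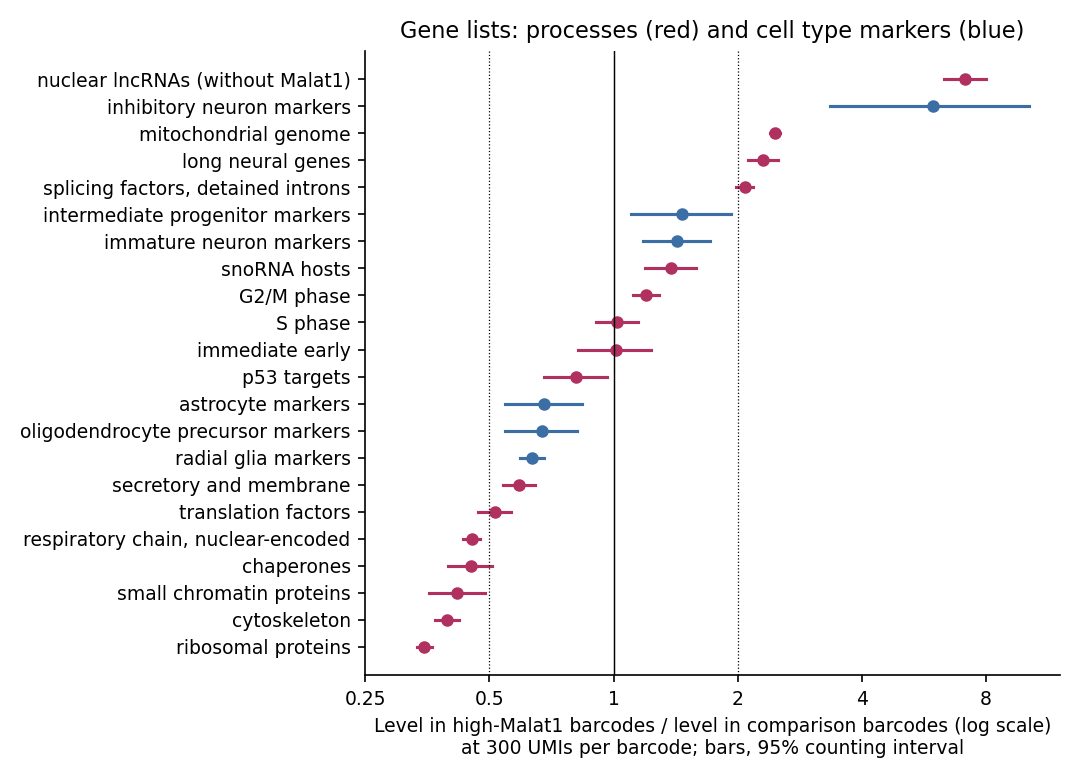
Each point is the ratio of a gene list's level in high-Malat1 barcodes to that in comparison barcodes (log scale), at 300 UMIs per barcode scaled to UMIs other than Malat1. Bars are 95% counting intervals, red marks process lists, blue marks cell type marker lists, and dotted lines lie at 0.5 and 2. Nuclear long non-coding RNAs lie highest at 7.12 and ribosomal proteins lowest at 0.348.

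Transcripts of the cytoplasmic translation machinery were lower. The 86 ribosomal protein genes together held 29134 CPM (27902 to 30406) against 83731, a ratio of 0.348 (0.333 to 0.363). Of 55 measured members, 50 were lower and none was higher, beside 22.5% and 20.1% of all measured genes. Rps15a, a protein of the small subunit, stood at 559 CPM against 1883, a ratio of 0.297 (0.248 to 0.352). The measured members nearest to equality were Rps18 at 0.874 (0.564 to 1.29) and Rpl36 at 0.808 (0.568 to 1.12). Many of these genes have near-identical copies that share reads, so single values are uncertain. Translation factors had a ratio of 0.515 (0.469 to 0.564), with 8 of 18 measured members lower (22.5% of all measured genes). Eef1b2, an elongation factor subunit, was at 0.380 (0.320 to 0.448), and Eif4a2, an initiation helicase, was at 1.78 (1.22 to 2.51).

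Other abundant housekeeping mRNAs had ratios below 1, and their counts stand beside the same 22.5% of all measured genes lower. Cytoskeleton genes had a ratio of 0.395 (0.369 to 0.422), with 8 of 14 measured members lower. Tmsb4x, the actin-binding thymosin beta-4, stood at 1983 CPM against 6015, a ratio of 0.330 (0.301 to 0.361), and Actb, beta-actin, at 3000 against 6848, a ratio of 0.438 (0.406 to 0.472). Small chromatin proteins, which work in the nucleus but whose mRNA is translated in the cytoplasm, had a ratio of 0.418 (0.357 to 0.487), and 11 of 14 measured members were lower. The histone variant genes H2afx and H2afz were at 0.230 (0.126 to 0.387) and 0.260 (0.159 to 0.402). The heat shock and chaperone list had a ratio of 0.450 (0.398 to 0.508), with 3 of 9 measured members lower. Genes for secreted and membrane proteins, translated at the endoplasmic reticulum, were nearer to equality at 0.589 (0.539 to 0.643), and 3 of 23 measured members were lower, a smaller share than the 22.5% of all measured genes.

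Mitochondrial transcripts did not go with the cytoplasmic mRNAs. The mitochondrial list stood at 80973 CPM (78910 to 83076) against 32835, a ratio of 2.47 (2.40 to 2.54), and 8 of 10 measured members were higher (20.1% of all measured genes). As a pool, the barcodes under the label of nuclear RNA therefore also held a larger share of mitochondrial RNA than the comparison barcodes. The 40 of them with at most 3% mitochondrial UMIs stood at 23980 CPM, a low level that their selection fixed. The large mitochondrial ribosomal RNA gene mt-Rnr2 had a ratio of 4.05 (3.96 to 4.13) with 8830 UMIs, and the other 9 measured members lay between 1.98 for mt-Nd1 and 2.36 for mt-Nd5. Nuclear copies of mitochondrial sequence can share reads with these genes. Nuclear genes of the respiratory chain and ATP synthase went the other way, with a ratio of 0.453 (0.431 to 0.476). Of 71 measured members, 45 were lower (22.5% of all measured genes) and none was higher. Their median coding length was 423 bases. Among all measured coding genes of 111 to 582 bases, 60.5% were lower, with a median ratio of 0.460. Atp5f1, a subunit of ATP synthase, was at 0.323 (0.257 to 0.402). The mitochondrial ratio moved with depth. Against the 170 comparison barcodes between 582 and 1113.5 UMIs, the middle range of the high-Malat1 barcodes, it was 1.38 (1.32 to 1.44), while ribosomal proteins had 0.387 (0.367 to 0.408) and nuclear long non-coding RNAs 9.65 (6.70 to 14.4). With both groups held to at most 10% mitochondrial UMIs the mitochondrial ratio was 1.70 (1.64 to 1.77).

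**Figure D3:**
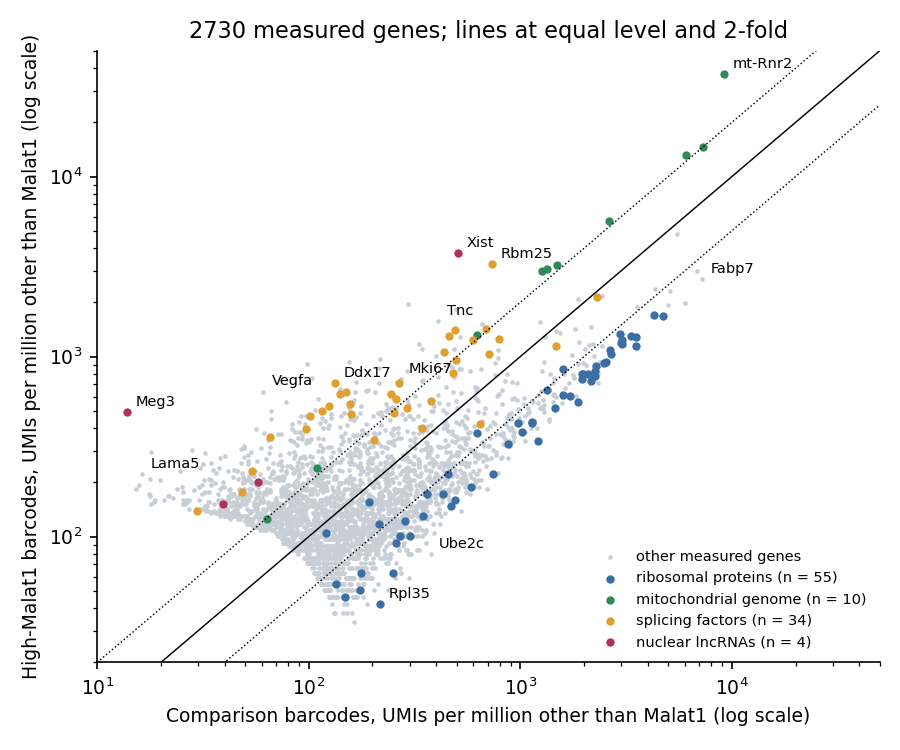
Levels of the 2730 measured genes in comparison barcodes (horizontal) and high-Malat1 barcodes (vertical), in CPM without Malat1, both on log scales. The solid line marks equal levels and dotted lines mark 2-fold. Ribosomal protein genes (blue) lie below the lower line in 50 of 55 cases, and splicing factor genes (orange) lie above the upper line in 22 of 34.

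The genes with the highest ratios after Meg3 were 2810055G20Rik at 16.3 (12.4 to 21.2) and Lama5, a laminin chain of basement membranes, at 13.7 (9.98 to 18.4). Zswim8, a ubiquitin ligase adaptor, had 12.3 (8.76 to 16.8), and Csmd2, a very large membrane protein, had 12.1 (8.61 to 16.8). The non-coding 4632427E13Rik had 11.8 (8.58 to 16), and Leng8 had 10.8 (8.28 to 13.8). Vegfa, the vascular growth factor induced by low oxygen, had 639 CPM against 60.8, a ratio of 10.5 (8.80 to 12.5), with its 152 UMIs in 65 barcodes. Yeats2, Lrp1, Pan3 and Fam193b followed at 10.3, 9.76, 9.46 and 9.41. These genes had few UMIs each, from 40 for Pan3 to 152 for Vegfa. In comparison barcodes they stood at 15.2 CPM for Csmd2 to 60.8 for Vegfa. They were measured only through the high-Malat1 barcodes, so the rule fixed their direction. Where GENCODE gives them a coding region it ran from 1176 bases for Vegfa to 13635 for the lipoprotein receptor Lrp1.

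At the low end, Rpl35 had 10 UMIs and a ratio of 0.194 (0.0928 to 0.357), and Taf9, a general transcription factor subunit, had 0.197 (0.108 to 0.330). Siva1, an apoptosis gene, had 0.206 (0.0890 to 0.407), and Ube2c, the ubiquitin-conjugating enzyme of mitotic exit, had 0.212 (0.127 to 0.331). At 300 UMIs per barcode Ube2c had 0.536 (0.265 to 0.973), no longer past 2-fold. H2afx and Car3 had 0.453 (0.180 to 0.948) and 0.383 (0.139 to 0.846) there, from 7 and 6 UMIs. The others from all UMIs were Rpl13-ps3 (0.213, a processed pseudogene whose reads can come from its parent gene), Bola3 (0.222), H2afx (0.230), Car3 (0.230), Mki67ip (0.236), Sec11a (0.248), Fdps (0.248) and Naa38 (0.249). Those with a coding region in GENCODE had 369 coding bases for Rpl35 to 1059 for Fdps. In high-Malat1 barcodes the 12 lowest genes stood at 33.6 CPM for Siva1 to 79.8 for Ube2c. They were measured through the comparison barcodes, where they were high. Of all 18 measured processed pseudogenes, 16 were lower, where 22.5% of all measured genes were.

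Across coding genes, the ratio followed the length of the coding sequence. Over 2559 measured coding genes of the nuclear genome, Spearman's rho between coding length and ratio was 0.724. The points share the same libraries and depth, so this is a description across genes. Genes were split into 5 equal groups by this length. In the shortest, 111 to 582 bases, the median ratio was 0.460, with 2 of 511 genes higher and 309 lower. In the longest, 2496 to 23151 bases, the median was 2.22, with 289 of 512 genes higher and 3 lower. For length of the whole transcript rho was 0.624 and for exon number 0.623, over 2607 genes. It was 0.502 for the genomic span, introns included, 0.254 for the 3′ untranslated region and 0.00212 for GC content. For the longest A run, inside which poly(A) capture can prime, it was 0.263.

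These lengths go together, so each was compared within groups alike in another. Among genes of the middle group of 3 by genomic span, median ratios were 0.624 for the group of shortest and 1.19 for the group of longest transcripts. In the middle group by transcript length they were 0.734 for the shortest and 1.02 for the longest genomic spans, and in the group of longest transcripts they were 1.16 and 2.23. Within the group of shortest 3′ untranslated regions, the medians were 0.448 and 1.44 for short and long coding regions. Among the genes in the top group by level, short and long transcripts had medians of 0.447 and 1.43. In the bottom group by level they had 0.674 and 1.88. In these groups ratios differed with transcript length at like span and level, with coding length at like 3′ length, and with span at like transcript length.

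**Figure D4:**
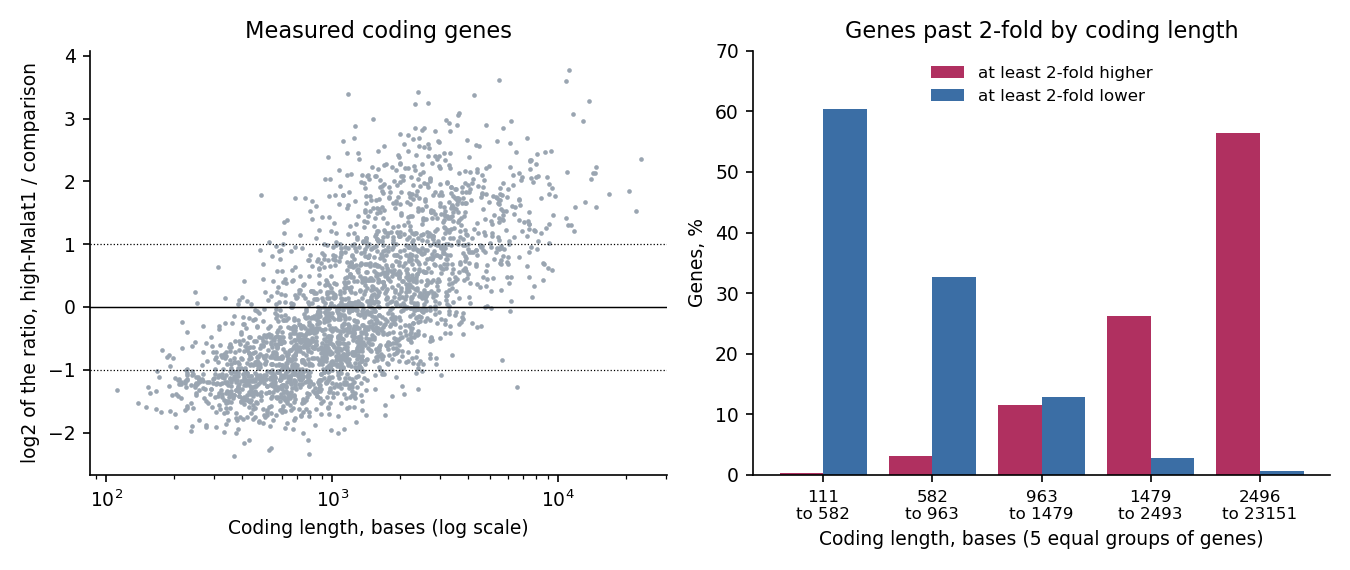
Left, coding length (bases, log scale) against the log2 ratio of high-Malat1 to comparison barcodes for 2559 measured coding genes, with dotted lines at 2-fold. Right, percentages of genes at least 2-fold higher (red) or lower (blue) in each of 5 groups by coding length. The share higher goes from 0.391% in the shortest to 56.4% in the longest group, and the share lower from 60.5% to 0.586%. Over all measured genes 20.1% were higher and 22.5% lower. Genes of low level were measured through the group where they were high.

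Inside lists, the relation with coding length ran from strong to nearly absent. Spearman's rho was 0.793 over 14 radial glia markers, 0.729 over 23 secreted and membrane protein genes and 0.664 over 38 G2 and M phase genes. It was 0.222 over 71 nuclear respiratory chain genes, 0.192 over 14 small chromatin protein genes and 0.133 over 54 ribosomal protein genes. Median coding lengths in these lists were 423, 517.5 and 435 bases. They fall in the shortest of the 5 length groups, where 60.5% of all genes were lower. Markers of radial glia, the stem cells of the embryonic brain, had a ratio of 0.636 (0.594 to 0.679). Of 14 measured markers, 3 were higher and 2 lower, near or below the 20.1% and 22.5% of all measured genes. The short genes Fabp7, a brain fatty acid-binding protein, and Dbi, an acyl-CoA binding protein, had 0.371 (0.343 to 0.401) and 0.454 (0.416 to 0.493). The long genes Notch1, a receptor that holds progenitors in their state, and Tnc, a matrix glycoprotein, had 4.16 (3.11 to 5.47) and 3.83 (3.44 to 4.25), and Ptprz1, a receptor phosphatase, had 2.30 (2.07 to 2.56). Sox2 and Sox9, transcription factors of neural stem cells, stood near equality at 0.936 (0.757 to 1.14) and 1.06 (0.810 to 1.36). Median ratios were 0.609 for the 7 shorter and 1.44 for the 7 longer measured coding regions of this list.

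Cell cycle lists were mixed in the same way. The G2 and M phase list had a ratio of 1.20 (1.11 to 1.29), with 6 of 38 measured members higher and 8 lower, shares near or below the 20.1% and 22.5% of all measured genes. Mki67, a coat protein of mitotic chromosomes with a coding region of 9531 bases, had 752 CPM against 272, a ratio of 2.76 (2.37 to 3.21), and Ncapd2, a condensin subunit, had 4.11 (2.87 to 5.72). Cdk1, the mitotic kinase, had 0.307 (0.196 to 0.457), and Cks1b, its small partner, had 0.254 (0.155 to 0.393). Medians were 0.620 for the 19 shorter and 1.51 for the 19 longer members. The S phase list had a ratio of 1.02 (0.906 to 1.14), with 1 of 22 measured members higher and 3 lower. The immediate early list had 1.01 (0.822 to 1.24), with none of 5 past 2-fold. These counts stand beside the same 20.1% and 22.5%.

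Long neural genes, a list chosen for great genomic span, had a ratio of 2.30 (2.11 to 2.51) over all 30 genes. Against comparison barcodes of like depth it was 1.75 (1.51 to 2.03). Of 14 measured members, 11 were higher (20.1% of all measured genes). Members under the limit in comparison barcodes can be measured only through the high-Malat1 barcodes, so this count is no support. The same limit applies to single genes of low level, here and in the lists above. Trio was at 5.57 (4.15 to 7.33), and Dclk1, a microtubule-binding kinase, at 3.85 (3.25 to 4.54). The p53 target list had a ratio of 0.812 (0.680 to 0.964), with 2 of 6 measured members higher, beside the same 20.1%. Mdm2, the ligase that limits p53, was at 3.41 (2.56 to 4.48) and Trp53inp1 at 2.22 (1.58 to 3.02), while Cdkn1a, which encodes p21 and blocks the cell cycle, was at 0.635 (0.534 to 0.749). Against comparison barcodes of like depth the ratio of this list was 1.05 (0.803 to 1.38).

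Markers of other cell types were scarce or mixed. Their counts past 2-fold stand beside 20.1% of all measured genes higher and 22.5% lower, and so few measured members give no result. The immature neuron list had a ratio of 1.43 (1.18 to 1.71). The median of its 3 measured members was 1.89, with 1 higher and none lower. Gap43, a growth cone gene, was at 0.587 (0.457 to 0.742). Against comparison barcodes of like depth the list had 1.16 (0.868 to 1.56), and at up to 10% mitochondrial UMIs 1.21 (0.951 to 1.53). The intermediate progenitor list had 1.47 (1.10 to 1.93), with none of 3 measured members past 2-fold, and the excitatory neuron list 4.53 (1.64 to 10.9) from 7 UMIs. The inhibitory neuron list had 20 UMIs at 300 UMIs per barcode, a ratio of 5.95 (3.35 to 10.2), and none of its genes was measured. Over all UMIs, 8 of its 10 genes had a UMI in high-Malat1 barcodes, with Dlx5 and Slc32a1 at 0, and Gad2 and Gad1, the enzymes that make GABA, had 14 and 12 UMIs. Against comparison barcodes of like depth this list had a ratio of 2.82 (1.03 to 9.60). Its part in the other ratios was not tested beyond the values without Meg3-holding barcodes. The oligodendrocyte precursor and astrocyte lists had ratios of 0.671 (0.545 to 0.817) and 0.680 (0.544 to 0.840). The 7 measured astrocyte markers had a median ratio of 1.28, with 1 lower, a smaller share than the 22.5% of all measured genes. Microglia, mural and choroid plexus lists had 0 UMIs at 300 per barcode, and endothelial, fibroblast and ependymal lists had 2, 1 and 1.

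The 254 barcodes differed among themselves. Across all barcodes, ribosomal protein transcripts went from 86535 CPM under 0.25% Malat1 to 53905 between 1% and 2%, 34957 between 2% and 3%, and 22152 (18635 to 26140) at 10% and more. The splicing list went from 14130 under 0.25% to 25442 between 2% and 3% and 36234 (31693 to 41244) in the 24 barcodes at 10% and more. Mitochondrial transcripts did not follow one direction. They went from 29952 CPM under 0.25% to 96856 between 2% and 3%, and down to 46835 (41651 to 52486) at 10% and more. Nuclear long non-coding RNAs other than Malat1 were highest at 7124 (6063 to 8317) between 3% and 5%, and at 10% and more they were at 4272 (2815 to 6216). Within the 254, the Malat1 share had Spearman's rho of -0.37 with the mitochondrial share and -0.38 with the ribosomal protein share, values that share a total of UMIs.

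**Figure D5:**
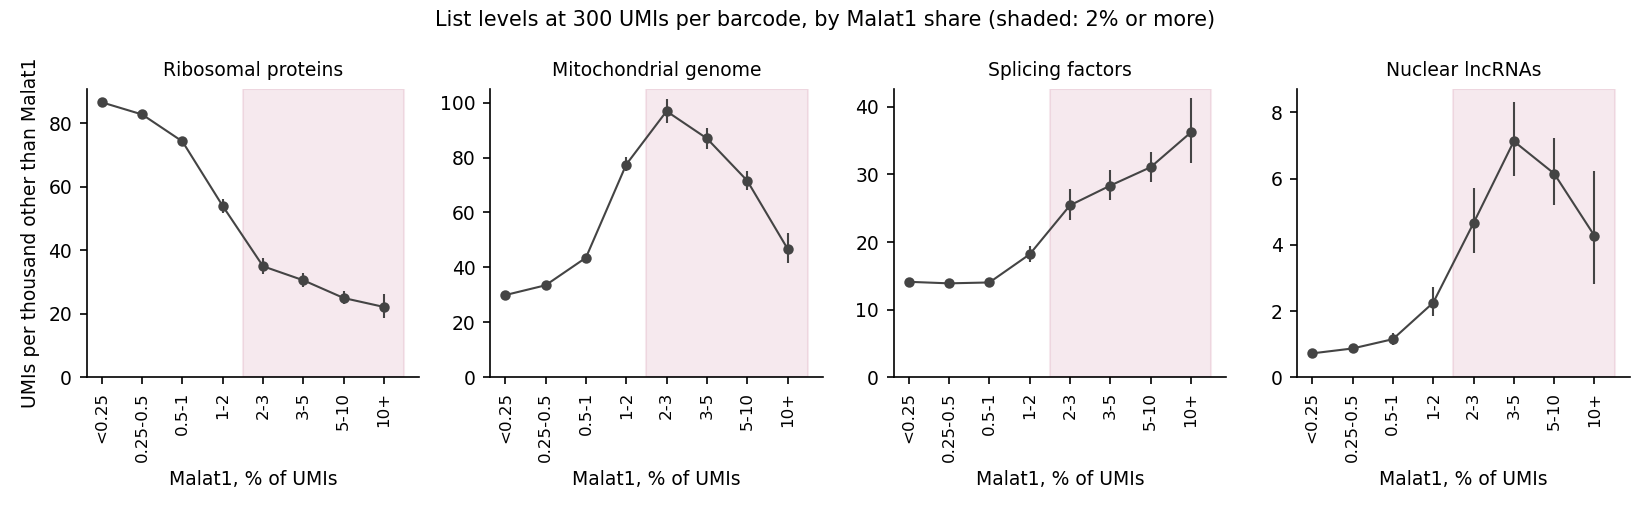
Levels of 4 gene lists at 300 UMIs per barcode, in UMIs per 1000 UMIs other than Malat1, for 8 ranges of Malat1 share; bars are 95% counting intervals and shading marks high-Malat1 barcodes. Ribosomal proteins go down and splicing factors go up over the shaded range, while mitochondrial transcripts peak between 2% and 3%.

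Mitochondrial share split the barcodes further. The 40 with at most 3% mitochondrial UMIs, close to the comparison median of 2.94%, had a median Malat1 share of 7.44% and a median of 959 UMIs. Their splicing list was at 36558 CPM (33079 to 40302), their ribosomal protein list at 28866 and their nuclear long non-coding RNAs at 4524. The 72 with more than 10% had a median Malat1 share of 3.38%, a splicing list at 24588 (22498 to 26820), ribosomal proteins at 26617 and nuclear long non-coding RNAs at 5990. The low ribosomal protein level and the high nuclear RNA level were thus present in both groups.

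Depth and mitochondrial content were also looked at without high Malat1. Each group was set against the 3441 comparison barcodes with at least 1000 UMIs and at most 10% mitochondrial UMIs, using all UMIs. The 134 comparison barcodes under 1000 UMIs had a ribosomal protein ratio of 0.859 (0.840 to 0.878), a nuclear long non-coding RNA ratio of 1.35 (1.11 to 1.63) and a splicing ratio of 1.04 (0.990 to 1.09). The 174 high-Malat1 barcodes under 1000 UMIs had 0.357 (0.345 to 0.369), 8.66 (8.01 to 9.35) and 2.14 (2.07 to 2.22). Mitochondrial transcripts were raised in both groups. Their ratio was 2.09 (2.04 to 2.14) in the 134 comparison barcodes and 2.501 (2.447 to 2.556) in the 174 high-Malat1 barcodes. Depth was not alike, with medians of 865 UMIs in the first group and 652.5 in the second. Median ratios in the shortest and longest of the 5 coding length groups were 0.865 and 1.15 in the first group, and 0.427 and 2.34 in the second. The 38 comparison barcodes over 10% mitochondrial UMIs had 0.622 for ribosomal proteins and 1.01 for splicing factors, against 0.305 and 1.85 in the 72 high-Malat1 barcodes over that limit. The 156 barcodes between 1% and 2% Malat1 lay between, at 0.734, 2.39 for nuclear long non-coding RNAs and 1.14 for splicing factors. These groups share their reference barcodes.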

How the data were processed

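Per the labels, libraries were made by Drop-seq from dissociated neurospheres. The authors deposited 1 table of raw UMI counts, 19144 genes by 4000 barcodes of 12 bases, with no map from barcodes to the 2 samples. Genome build mm10 is named in the submitters' processing notes; which aligner, counter, annotation and strand setting were used is not given in the sources used here. The UMIs of each barcode ran from 1 to 54060 (median 3681.5).

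Barcodes were split by Malat1 share (members at least 2%, comparison under 1%) and thinned without replacement to 300 UMIs (seed 0). Gene lists were summed from thinned counts and single genes from all UMIs, per 1000000 UMIs other than Malat1 (CPM). Ratios have exact conditional binomial intervals, levels exact Poisson intervals and shares exact Clopper-Pearson intervals, at 95%. With 1 pooled sample no test was made, no paired analysis was possible, and doublets were not called. Gene lengths came from GENCODE M21 (mm10), using the transcript with the longest coding sequence; 2617 of 2730 measured genes matched by symbol. Named genes are members of the gene lists and the 12 highest and 12 lowest ratios. The high-Malat1 barcodes and the gene lists were chosen with earlier results of these data known. The code was tested on simulated data. Python 3.11.15, numpy 2.4.6, scipy 1.17.1 and pandas 2.3.3 were used.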

Additional observations from a re-analysis of the deposited data

How the results depend on the processing

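With 1 pooled table, no replicate could be left out, and no paired analysis was possible because barcodes are not mapped to samples. Over 21 list ratios and 272 recalculations, 231 moved by less than their counting interval, 40 moved further and 1 reversed, the p53 target list at 1.05 against comparison barcodes of like depth. The cause was not tested for any of them.

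The mitochondrial ratio of 2.47 became 2.29 with Malat1 of at least 3%, 2.59 with comparison barcodes under 0.5%, 2.70 with all UMIs, 2.34 with Malat1 in the total, 2.60 with mitochondrial transcripts out of it, 1.38 at like depth, 1.70 at up to 10% mitochondrial UMIs and 2.34 in the UMIs not used to choose barcodes. The ribosomal protein ratio of 0.348 became 0.322 with Malat1 of at least 3%, 0.388 with all UMIs, 0.331 with Malat1 in the total, 0.366 without mitochondrial transcripts and 0.387 at like depth. The nuclear long non-coding RNA ratio of 7.12 became 9.65 at like depth and 6.13 without Meg3-holding barcodes, an alternative chosen after seeing the data, as was leaving out barcodes 1 base from another. Other list ratios also moved at like depth. Long neural genes went from 2.30 to 1.75 and small nucleolar RNA hosts from 1.38 to 1.89. Secreted and membrane protein genes went from 0.589 to 0.732 and radial glia markers from 0.636 to 0.705.

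From 1000 UMIs, 80 high-Malat1 barcodes remained. The 550 higher genes became 103 at 300 UMIs, 1347 with at least 10 expected UMIs, 142 with at least 50, 360 with the whole interval past 2-fold and 335 at up to 10% mitochondrial UMIs. The 614 lower genes became 221 at 300 UMIs, 299 with at least 50 expected UMIs and 157 with the whole interval past 2-fold. Few UMIs per barcode limit single genes: 597 genes were measured at 300 UMIs.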

Other observations

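Gene families grouped by the first letters of their symbols, a grouping chosen after the data were seen, add groups that the lists did not hold. Of mitochondrial ribosomal protein genes, which are encoded in the nucleus, 12 of 19 measured Mrps genes and 17 of 30 measured Mrpl genes were at least 2-fold lower in high-Malat1 barcodes and none was higher. Their median ratios were 0.453 and 0.473, beside 22.5% of all measured genes lower and a median ratio of 0.867. Among all measured coding genes of 111 to 582 bases 60.5% were lower, and the coding lengths of these families were not compared. Timm genes, which serve protein import into mitochondria, had 4 of 8 lower. Zinc finger genes named Zfp had 8 of 23 higher and 1 lower, with a median ratio of 1.22, where 20.1% of all measured genes were higher. Among solute carriers named Slc, 7 of 21 were higher and 3 lower, beside the same 20.1% and 22.5%.

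Only 4 comparison barcodes had under 600 UMIs. Their median Malat1 share was 0.391%, and they held ribosomal protein transcripts at 30201 CPM (21153 to 41811) and nuclear long non-coding RNAs at 16779 (10249 to 25913), where Xist gave 17 of the 20 UMIs. Splicing factor genes in these 4 stood at 26007 CPM (17670 to 36915). The 69 high-Malat1 barcodes under 600 UMIs had 28423, 7233 and 29238 CPM for the same lists.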
